A study of Mus musculus with 6 samples.

Results

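The 10 genes described here encode costimulatory and inhibitory surface proteins of T cells: Ctla4, Pdcd1, Lag3, Havcr2, Cd28, Icos, Cd5, Cd6, Cd200 and Cd83. They were chosen by name, with earlier results of these data known. A probe set was taken as theirs when the platform's annotation gave it exactly 1 of these symbols. All 10 were found, on 12 of the table's 22690 probe sets, and they are 10 of the 12394 genes compared. Cd28 and Icos had 2 probe sets each and the others had 1. Where there were 2, the one with the higher mean over the 6 arrays stood for the gene, and the other is given beside it.

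The study measured gene expression on Affymetrix arrays in regulatory T (Treg) cells from mouse spleen and lymph nodes, sorted for CD4, CD25 and the YFP of a Foxp3YFP-Cre allele. All mice of both groups carried that allele, so Cre was expressed from the Foxp3 locus in controls as well. The 3 mice labelled Gata3-deficient were Gata3F/F, with both alleles of Gata3 loxP-flanked. The 3 labelled Gata3-sufficient, titled WT, were Gata3F/+, so they carried 1 loxP-flanked allele and 1 intact allele. Age and sex of the mice are not given in the sources used here.

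A T cell needs a second signal beside its antigen receptor, and CD28 and ICOS deliver it. CTLA-4 binds the same B7 ligands as CD28 with higher affinity and takes them away from it, and Treg cells, which hold much CTLA-4, use this to restrain antigen-presenting cells. PD-1, LAG-3 and TIM-3 dampen signalling after activation, and CD5 and CD6 are scavenger receptor proteins that sit beside the antigen receptor and tune its signal.

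The value of every gene is a log2 intensity, and a log2 change is the mean of the arrays labelled Gata3-deficient minus the mean of those labelled Gata3-sufficient. Each group has 3 arrays, their number limits the precision, and array medians lay between 6.06 and 6.11. The Gata3 probe set read 9.57, 9.41 and 9.47 on arrays labelled sufficient and 9.83, 9.98 and 9.71 on arrays labelled deficient. It was higher on the latter by 0.35 ± 0.07 (log2, SE), with an adjusted p of 0.0387 in limma. This call was lost without the intensity trend (0.150), with all probe sets tested (0.0516) and in 4 of 6 fits with 1 array left out, those without sufficient replicate 2 (0.182) or 3 (0.0981) and deficient replicate 1 (0.0751) or 2 (0.133), though the change stayed positive in all of them. The gene targeted for deletion was thus not lower under its label, no source used here says whether this probe set lies in the deleted part, so the direction of each change given here is that of the labels. Foxp3 lay on a dim probe set, one with a mean under the 40th percentile of all genes (5.55), at 3.90 ± 0.05 and 3.94 ± 0.12 (SD, n = 3 each). The other markers of CD4 T and Treg cells were not dim, among them Cd4 (8.03 and 8.23), Cd3e (9.67 and 9.68) and Il2ra, the gene of CD25 (8.88 and 9.07).

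Of the 10 receptor genes Cd6 alone passed the threshold, an adjusted p under 0.05 in limma's test over all genes, and it was higher in the arrays labelled deficient. Ctla4 and Icos were higher and Cd28 lower in all 3 arrays labelled deficient than in any labelled sufficient, by 1.16-fold to 1.27-fold, and did not pass. The remaining 6 genes had log2 changes between -0.08 and 0.19. One call in 10 genes compares with 2.21% of all genes called in either direction and 1.44% called higher. Unadjusted p was under 0.05 for 4 of the 10, with 3 higher and 1 lower, against 14.4% of all genes. The groups did not overlap in 5 of the 10, 4 of them higher in the arrays labelled deficient, against 19.8% of all genes. The median log2 change of the 10 was 0.08, beside 0.0078 over all genes, and the median size was 0.14 beside 0.08. As the 10 were chosen with earlier results of these data known, these comparisons describe them and do not test for an excess.

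**Figure D1:**
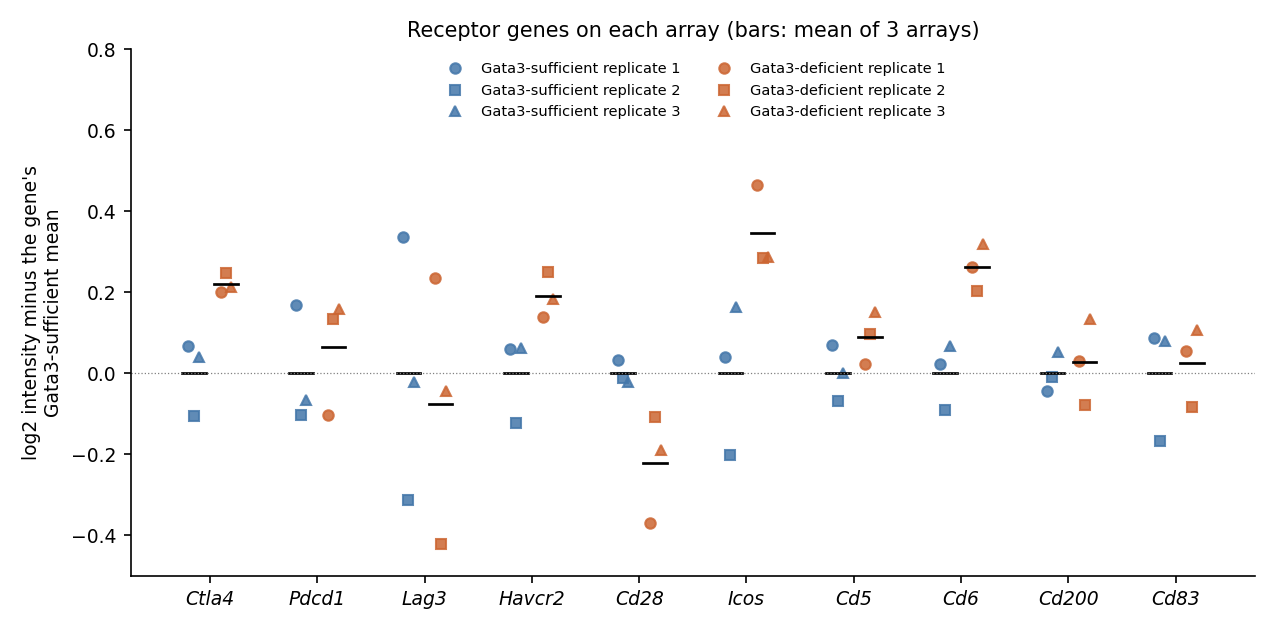
Log2 intensity of each of the 10 receptor genes on each of the 6 arrays, minus that gene's mean over the arrays labelled Gata3-sufficient (vertical axis, log2 units). Points are single arrays, with a colour for each group and a symbol for each replicate number, and black bars are means of 3 arrays; the groups stand apart for Ctla4, Havcr2, Cd28, Icos and Cd6 and overlap for the other 5 genes.

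Ctla4, the inhibitory receptor for B7 ligands, read 11.92, 11.75 and 11.90 on the arrays labelled sufficient and 12.06, 12.10 and 12.07 on those labelled deficient. The 3 arrays labelled deficient were all higher, and they lay close together. The group means of 11.86 ± 0.09 and 12.08 ± 0.02 (SD, n = 3 each) lay 1.16-fold apart. The log2 change was 0.22 ± 0.05 (SE, 95% interval 0.11 to 0.33). Its adjusted p was 0.0531 by limma, just short of the threshold. It passed in 4 of 11 alternative settings, namely robust variance estimation (0.0443), dim genes left out (0.0413), median centring (0.0494) and array quality weights (0.0139). With single arrays left out it passed in 1 of 6 fits, the one without sufficient replicate 1 (0.0409).

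The Ctla4 promoter is shown because Ctla4 is, of the receptor genes with a promoter in the table used, the one nearest the threshold. RefSeq promoters of assembly GRCm38.p6, from 250 bases before to 50 bases after the annotated start, were found for 5 of the 10 genes (Ctla4, Pdcd1, Havcr2, Cd200 and Cd5). The window of Ctla4, chr1:60908775-60909074 on the plus strand, is printed 5′ to 3′ with the letters TATAAA in capitals.

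Ctla4: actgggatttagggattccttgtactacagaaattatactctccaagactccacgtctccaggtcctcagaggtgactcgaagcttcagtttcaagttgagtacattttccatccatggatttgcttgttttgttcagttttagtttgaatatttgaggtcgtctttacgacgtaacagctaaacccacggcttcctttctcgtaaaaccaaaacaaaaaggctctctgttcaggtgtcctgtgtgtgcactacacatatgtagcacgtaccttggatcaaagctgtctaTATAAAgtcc

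These letters begin 40 bases after the annotated start, and TATAAA, searched on the printed strand, occurs in 8.32% of all 32851 promoters of this length. GATA factors bind sites that can be written AGATAA, with T also allowed as the first letter and G as the last. These forms, which contain the shorter GATA, were searched on both strands, as was GATA alone. The Ctla4 window holds neither such a site nor GATA, which occur in 29.8% and 57.9% of all promoters. Of the other 4 windows, those of Havcr2 and Cd200 hold 1 of the longer sites each, and GATA occurs 3 times in the first and 1 time in the second, the longer site included. Those of Pdcd1 and Cd5 hold neither. The stretches around both longer sites are shown for comparison, with the site in capitals, 229 and 119 bases before the start. They lie at chr11:46454682-46454727 on the plus strand and chr16:45409147-45409192 on the minus strand of GRCm38.p6.

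Havcr2: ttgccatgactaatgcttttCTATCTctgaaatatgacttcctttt

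Cd200: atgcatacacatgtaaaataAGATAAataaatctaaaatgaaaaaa

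The Havcr2 match is on the opposite strand and reads AGATAG there. A match describes letters and is not a measured binding site.

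Pdcd1, the gene of PD-1, a relative of CD28 and CTLA-4 that restrains activated T cells, read 8.11, 7.84 and 7.88 on arrays labelled sufficient. It read 7.84, 8.08 and 8.11 on those labelled deficient, so each group had low and high arrays and the groups overlapped. Its log2 change was 0.06 ± 0.09 (SE, 95% interval -0.14 to 0.27, adjusted p = 0.826), and no difference was detectable.

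Lag3, the gene of a receptor for class II histocompatibility molecules, varied most of the 10 within each group. It read 7.0, 6.36 and 6.65 on arrays labelled sufficient and 6.90, 6.25 and 6.63 on those labelled deficient. The values of both groups covered nearly the same range. The means were 6.67 ± 0.32 and 6.59 ± 0.33 (SD, n = 3 each), with a log2 change of -0.08 ± 0.19 (SE, 95% interval -0.49 to 0.34, adjusted p = 0.904). That interval holds changes in either direction as large as those of Ctla4 and Cd28.

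Havcr2, the gene of TIM-3, an inhibitory receptor of activated T cells, was the 1 dim gene of the 10. It read 4.24, 4.06 and 4.24 on arrays labelled sufficient and 4.32, 4.43 and 4.36 on those labelled deficient. All 3 of the latter were higher, but by a log2 change of 0.19 ± 0.10 (SE, 95% interval -0.03 to 0.41) that did not pass (adjusted p = 0.419). A dim probe set can understate a change.

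Cd28, the main costimulatory receptor of T cells, read 10.80, 10.75 and 10.74 on the arrays labelled sufficient, which lay close together. It read 10.40, 10.66 and 10.58 on those labelled deficient, all of them lower, with replicate 1 the lowest. The means were 10.76 ± 0.03 and 10.54 ± 0.13 (SD, n = 3 each). The log2 change was -0.22 ± 0.06 (SE, 95% interval -0.36 to -0.08), and the adjusted p of 0.114 did not pass. The second Cd28 probe set read 10.69, 10.58 and 10.59 against 10.56, 10.46 and 10.41. It was lower without overlap as well, by a smaller log2 change of -0.14 ± 0.05 (SE). With the mean of both probe sets the adjusted p was 0.0698, the lowest of any setting.

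Icos, the inducible costimulator, known to mark activated Treg cells, had the largest change of the 10. It read 10.26, 10.02 and 10.38 on arrays labelled sufficient and 10.68, 10.50 and 10.51 on those labelled deficient. The groups did not overlap, though the highest of the former and the lowest of the latter lay only a little apart. The group means of 10.22 ± 0.19 and 10.56 ± 0.10 (SD, n = 3 each) lay 1.27-fold apart. The log2 change was 0.35 ± 0.09 (SE, 95% interval 0.15 to 0.54) with an adjusted p of 0.0831. The second Icos probe set read 8.69, 8.48 and 8.69 against 8.99, 8.92 and 8.92. Its log2 change was 0.32 ± 0.07 (SE), with an adjusted p of 0.0536 in limma's fit over all probe sets. Icos passed in 2 of 11 alternative settings, the replicate number as a block (0.0342) and array quality weights (0.0376), and in 0 of 6 fits with 1 array left out.

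The probe sets of Cd28 were thus both lower and those of Icos both higher in the arrays labelled deficient, and none of the 4 passed. In the fit over all probe sets 0 of the 12 receptor probe sets passed, against 1.37% of all probe sets, and Cd6 had an adjusted p of 0.0516. Unadjusted p was under 0.05 for 6 of the 12, against 13.3% of all probe sets.

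**Figure D2:**
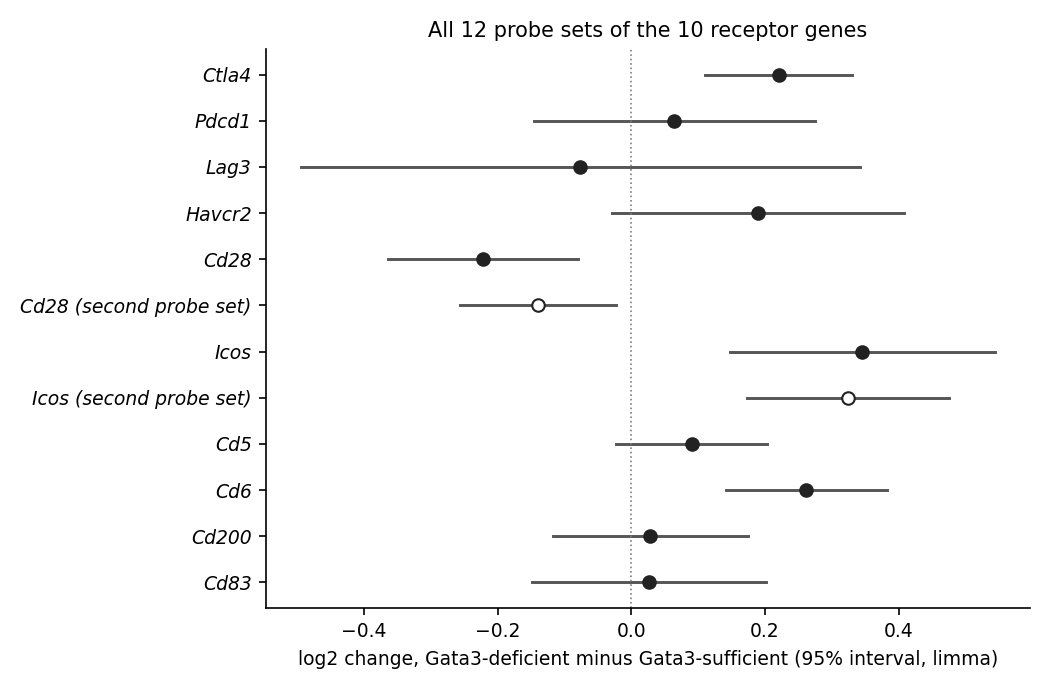
Log2 change of each of the 12 receptor probe sets (horizontal axis, Gata3-deficient minus Gata3-sufficient by label) with limma's 95% interval as a line, from the fit over all probe sets. Filled points are the probe sets that stand for a gene and open points the second probe sets of Cd28 and Icos, which lie on the same side of 0 as the first.

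Cd28, Ctla4 and Icos are consecutive protein-coding genes on chromosome 1 in RefSeq's order, and their changes differed in sign. The log2 intensity of Ctla4 minus that of Cd28 was 1.13, 1.0 and 1.15 on arrays labelled sufficient and 1.66, 1.45 and 1.49 on those labelled deficient. This difference was larger on all 3 of the latter, by 0.44 between the group means. For Icos minus Cd28 it was larger by 0.57, again without overlap. As Ctla4 and Icos were each higher and Cd28 lower without overlap, these differences had to separate as well. The exact permutation test, two-sided, was thus bound to give p = 0.1 for each, the smallest that 3 arrays against 3 allow. It adds nothing to the values of the single genes. For Ctla4 minus Icos the groups overlapped, and the means lay -0.13 apart (exact permutation test, two-sided, p = 0.3). All these pairs were picked after the values were seen. Pard3b, the next protein-coding gene after Icos, is dim and had a log2 change of 0.02 ± 0.13 (SE). The 2 genes before Cd28, Abi2 and Raph1, were not analysed here.

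Cd5, whose protein restrains antigen receptor signalling, read 11.28, 11.14 and 11.21 on arrays labelled sufficient and 11.24, 11.31 and 11.36 on those labelled deficient. The groups overlapped, and the log2 change of 0.09 ± 0.05 (SE, 95% interval -0.02 to 0.20) did not pass (adjusted p = 0.466).

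Cd6, the gene of the relative of CD5 that binds the adhesion molecule ALCAM, read 10.43, 10.32 and 10.48 on arrays labelled sufficient. It read 10.67, 10.61 and 10.73 on those labelled deficient, all of them higher. The means were 10.41 ± 0.08 and 10.67 ± 0.06 (SD, n = 3 each), and Cd6 rose 1.20-fold (log2 change 0.26 ± 0.05, SE, 95% interval 0.14 to 0.38, adjusted p = 0.0387 by limma). Leaving out limma's intensity trend (0.171) or testing all probe sets (0.0516) ended this call. It was kept in 1 of 6 fits with 1 array left out, that without sufficient replicate 3 (0.0467), and lost without sufficient replicate 1 (0.0576) or 2 (0.163) and without deficient replicate 1 (0.0751), 2 (0.0909) or 3 (0.124).

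Cd5 and Cd6 are neighbours on chromosome 19. The log2 intensity of Cd6 minus that of Cd5 was -0.85, -0.82 and -0.73 on arrays labelled sufficient and -0.56, -0.70 and -0.63 on those labelled deficient. It was higher on all of the latter, by 0.17 between the means (exact permutation test, two-sided, p = 0.1). That is the smallest p that 3 arrays against 3 allow, and this pair too was picked after the values were seen. On the far side of Cd5, Vps37c had a log2 change of -0.10 ± 0.05 (SE). On the far side of Cd6, the dim Slc15a3 had 0.51 ± 0.16 (SE), and neither passed (adjusted p = 0.437 and 0.167).

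Cd200 encodes a membrane glycoprotein that inhibits myeloid cells through its receptor, and Cd83 a glycoprotein that keeps class II molecules and CD86 at the cell surface. Cd200 read 8.60, 8.63 and 8.69 on arrays labelled sufficient and 8.67, 8.56 and 8.77 on those labelled deficient. Cd83 read 9.69, 9.43 and 9.68 on arrays labelled sufficient and 9.65, 9.52 and 9.71 on those labelled deficient. Both overlapped between groups. The log2 changes were 0.03 ± 0.06 for Cd200 (SE, 95% interval -0.11 to 0.17, adjusted p = 0.893) and 0.03 ± 0.08 for Cd83 (SE, -0.15 to 0.20, adjusted p = 0.922).

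Sufficient replicate 2 was the lowest of its group's 3 arrays for 8 of the 10 receptor genes, all but Cd28 and Cd200, while it was the lowest for 34.1% of all genes. Without that array the log2 changes were 0.17 for Ctla4, 0.24 for Icos, 0.22 for Cd6 and -0.23 for Cd28, and all 4 kept their sign. Their adjusted p values in limma were then 0.179, 0.229, 0.163 and 0.303, with 62 genes called in all. This pattern was noticed after the values were seen.

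By the smallest root mean square difference between centred log2 values over the 6 arrays, among the 7436 genes that were not dim, the patterns most like Ctla4 were those of Efhd2, Avpi1 and Ece2. Efhd2, the gene of an EF-hand calcium-binding protein, differed by 0.017 (log2 units), Avpi1 by 0.020 and Ece2, a metalloprotease gene, by 0.022. None of the 3 passed the threshold, and their log2 changes were 0.22, 0.25 and 0.21. Genes picked by likeness over the same arrays must have log2 changes near that of Ctla4 or Cd6, so these are no separate finding. Most like Cd6 were Slc25a39, a mitochondrial carrier gene (0.024), Tpi1, the gene of triosephosphate isomerase (0.025), and Rcc1, a regulator of the GTPase Ran (0.026). Slc25a39 rose by a log2 change of 0.27 (adjusted p = 0.0450). Leaving out any single array ended this call (0.0745 to 0.203 over the 6 fits). It did not pass without the intensity trend (0.171), with the most variable probe set (0.0613) or with all probe sets tested (0.0620), and with the mean of its probe sets the change was 0.12 (0.386). The other genes, Tpi1 (0.25) and Rcc1 (0.24), did not pass.

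Genes that act with these receptors were read in 6 lists, with 72 of 90 listed genes measured. With adjustment over all genes 2 of the 72 rose and 2 fell, against 2.21% of all genes called, and the median log2 change was 0.02. Unadjusted p was under 0.05 for 8 higher and 11 lower genes of the 72, against 14.4% of all genes. The groups did not overlap in 19 of the 72, against 19.8% of all genes. Of the 10 measured ligands and partners 0 passed the threshold in limma, and the median was -0.09. Unadjusted p was under 0.05 for 1 higher and 3 lower genes, against 14.4% of all genes. Cd274 and Pdcd1lg2, the genes of the PD-1 ligands PD-L1 and PD-L2, had log2 changes of -0.24 ± 0.06 and -0.24 ± 0.09 (SE). Alcam, the partner of CD6, had -0.42 ± 0.12 (SE, adjusted p = 0.113). Cd86, a B7 ligand of CD28 and CTLA-4, had 0.28 ± 0.07 (SE, adjusted p = 0.0853). In all 4 of these genes the groups did not overlap. They are the 4 with the smallest p in the list and its only 4 without overlap, against 19.8% of all genes.

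Among 9 further coreceptors Cd7, an immunoglobulin-family receptor of T and NK cells, fell by 0.38 on the log2 scale (6.76 ± 0.01 to 6.38 ± 0.09, SD, n = 3 each, adjusted p = 0.0398). It did not pass without the intensity trend (0.0714) or with replicate blocks (0.0583), the most variable probe set of each gene (0.0559) or all probe sets tested (0.0516). The other 8 did not pass, and the list's median was 0.03. This 1 call in 9 genes compares with 2.21% of all genes called. At an unadjusted p under 0.05 there were 1 higher gene and 1 lower gene, against 14.4% of all genes. Vsir, the gene of the inhibitory receptor VISTA, had 0.13 ± 0.05, Lair1, on a dim probe set, 0.08 ± 0.09 and Cd160 0.06 ± 0.06 (SE). The Cd160 value changed sign with other choices of probe set.

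Of 13 signalling genes downstream of CD28, ICOS, CD5 and CD6, 0 passed in limma. Unadjusted p was under 0.05 for 1 higher gene and 1 lower gene, near the 14.4% of all genes. The median was 0.06. Prkcq, the gene of protein kinase C theta, had -0.18 ± 0.05 and Akt1, a kinase gene downstream of PI3 kinase, 0.23 ± 0.08 (SE). Pik3cd (0.09) and Vav1 (0.10) were smaller, and Pik3cd changed sign with other choices of probe set. Of 13 genes that restrain signalling, Ptpn11 rose and the rest did not pass (median -0.00050). This 1 call in 13 genes compares with 2.21% of all genes called. At an unadjusted p under 0.05 there were 1 higher and 2 lower genes, against 14.4% of all genes. Ptpn11, the gene of the phosphatase SHP-2 that PD-1 recruits, read 9.40, 9.22 and 9.43 on arrays labelled sufficient and 9.73, 9.59 and 9.69 on those labelled deficient. All 3 of the latter were higher (log2 change 0.32 ± 0.06, SE, adjusted p = 0.0377). The call was lost with the mean of its probe sets (0.23, adjusted p = 0.303), the most variable one (0.40, 0.119), no intensity trend (0.149) and all probe sets tested (0.0511). Pag1, an adaptor gene (-0.17), Cbl, a ubiquitin ligase gene (-0.16), and Dok2, an adaptor gene (-0.16), did not pass. Pag1 was 0.02 with its most variable probe set.

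Among 10 genes of receptor trafficking and turnover Lrba rose, and the median was 0.04. This 1 call in 10 genes compares with 2.21% of all genes called. At an unadjusted p under 0.05 there were 2 higher and 0 lower genes, against 14.4% of all genes. Lrba, whose protein keeps CTLA-4 from degradation in lysosomes, read 9.35, 9.18 and 9.28 on arrays labelled sufficient and 9.49, 9.58 and 9.65 on those labelled deficient. The groups did not overlap (log2 change 0.30 ± 0.06, SE, adjusted p = 0.0371). With the mean of its probe sets the change was 0.11 and did not pass (0.456), nor did it pass without the trend (0.144). Trat1, the gene of an adaptor that helps bring CTLA-4 to the surface, had 0.36 ± 0.08 (SE, adjusted p = 0.0616). Rab8a (0.08) and Rc3h2 (-0.08), a relative of the roquin gene that limits Icos RNA, were far from the threshold.

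Of 17 transcription factor genes known to act on receptor genes, Tbx21, the gene of T-bet, fell by 0.63 on the log2 scale (6.64 ± 0.13 to 6.00 ± 0.16, SD, n = 3 each, adjusted p = 0.0185). Without the intensity trend it did not pass (0.0581). The list's median was -0.06. This 1 call in 17 genes compares with 2.21% of all genes called. At an unadjusted p under 0.05 there were 2 higher and 4 lower genes, against 14.4% of all genes. Nfatc1, a calcium-dependent activator of Pdcd1, had 0.29 ± 0.06 (SE, adjusted p = 0.0537). Foxo1 had -0.15 ± 0.04 and Bcl6 -0.17 ± 0.07 (SE), and neither passed. The Foxo1 value was 0.0091 with the most variable probe set. With 1 array left out in turn Tbx21 passed in 4 of 6 fits (not without sufficient replicate 2 or deficient replicate 2), Lrba in 2 (without sufficient replicate 1 or deficient replicate 1), Ptpn11 in 1 (without sufficient replicate 1) and Cd7 in 1 (without deficient replicate 1). Adjusted p values reached 0.105, 0.166, 0.142 and 0.168 in the others.

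**Figure D3:**
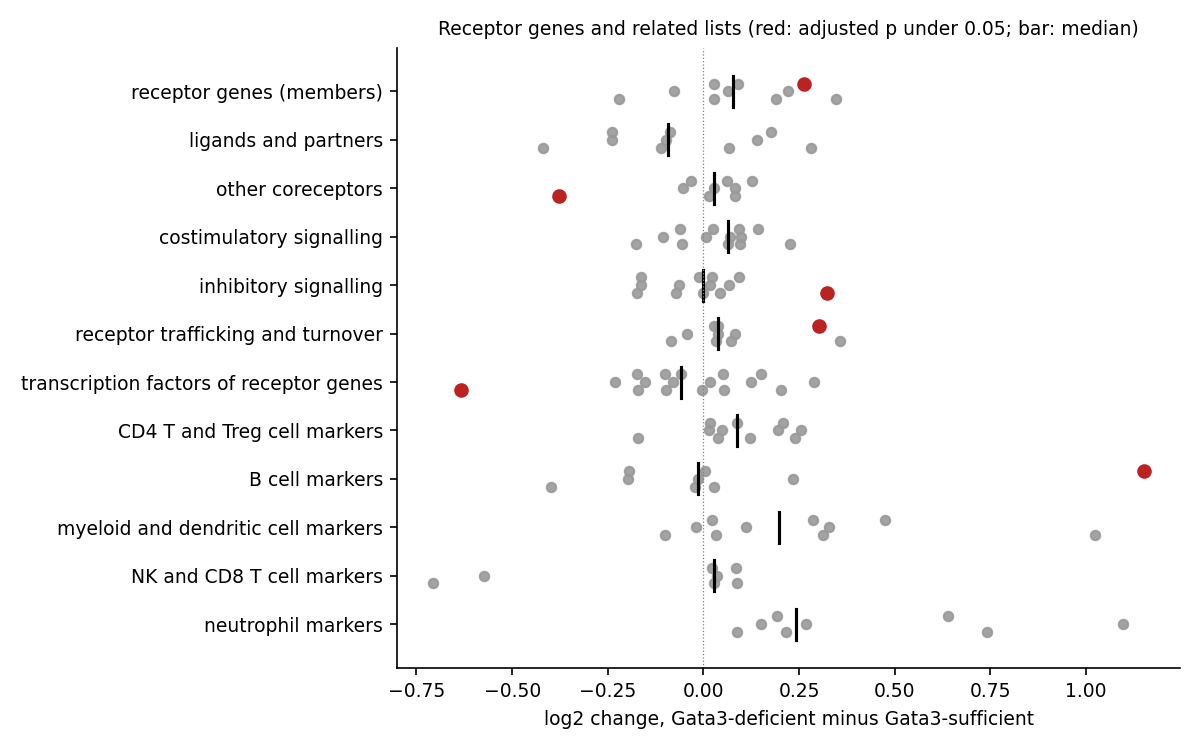
Log2 change (horizontal axis, Gata3-deficient minus Gata3-sufficient by label) of the 10 receptor genes and of each measured gene of 6 related lists and 5 lists of cell type markers. Each point is a gene, red where the adjusted p is under 0.05, and the bar is the median; 1 receptor gene, Cd6, is red, and so are Cd7, Ptpn11, Lrba, Tbx21 and Cd22.

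Several of these receptors are also found on other leukocytes, such as Cd5 and Cd83 on B cells and Cd83 and Havcr2 on dendritic cells, so marker lists of such cells were read on each array. In bulk RNA a change in the share of cells cannot be told apart from a change of RNA per cell. For comparison with the marker counts, 2.21% of all genes were called and 14.4% had an unadjusted p under 0.05. Of 9 B cell markers 1 rose (Cd22, 1.15 ± 0.11, SE, adjusted p = 0.00152), 5 were dim, and the mean log2 level of the list was 5.82 to 5.92 on arrays labelled sufficient and 5.86 to 5.99 on those labelled deficient. Cd79b had 0.23, Ms4a1 -0.40 and the dim Fcer2a -0.19, none past the threshold. Ighm was the brightest of these 9 markers, with a mean of 12.18 under the sufficient label and 12.17 under the deficient label. It hardly differed between the groups (-0.015 ± 0.040, SE). Of 10 myeloid and dendritic cell markers 0 passed in limma and 3 were higher at an unadjusted p under 0.05, 6 were dim, and the list's level was 5.07 to 5.28 and 5.25 to 5.54. Lyz2 had 1.02 ± 0.26, Tyrobp 0.48 ± 0.17, Fcer1g 0.31 ± 0.11 and the dim Adgre1 0.29 ± 0.13 (SE). All 8 neutrophil markers were dim, 0 passed in limma and 2 were higher at an unadjusted p under 0.05, and the list's level was 4.51 to 4.68 and 4.77 to 5.34. S100a9 had 1.10 ± 0.31, Ngp 0.74 ± 0.27, S100a8 0.64 ± 0.34 and Camp 0.22 ± 0.11 (SE).

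Of 7 NK and CD8 T cell markers 0 passed in limma. Unadjusted p was under 0.05 for 2, both lower, against 14.4% of all genes. The list's level was 5.78 to 5.91 and 5.58 to 5.77. The 2 lower genes were Klrk1 (-0.57 ± 0.17) and Klrd1 (-0.71 ± 0.23, SE), while the dim Cd8a had 0.08 and the dim Klra8 0.09. Of the 11 markers of CD4 T and Treg cells 0 passed in limma, and the median was 0.09. Unadjusted p was under 0.05 for 5 higher genes and 1 lower gene, against the same 14.4%. The level of that list was 9.18 to 9.30 and 9.29 to 9.35. Ikzf4 had 0.26 ± 0.07, Itgae 0.24 ± 0.09, Il2ra 0.20 ± 0.06 and Cd247, a chain of the antigen receptor complex, -0.17 ± 0.05 (SE). Cd4, the gene next to Lag3 on chromosome 6, had 0.21 ± 0.08 (SE). The part of other cells in the receptor values was not tested.

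**Figure D4:**
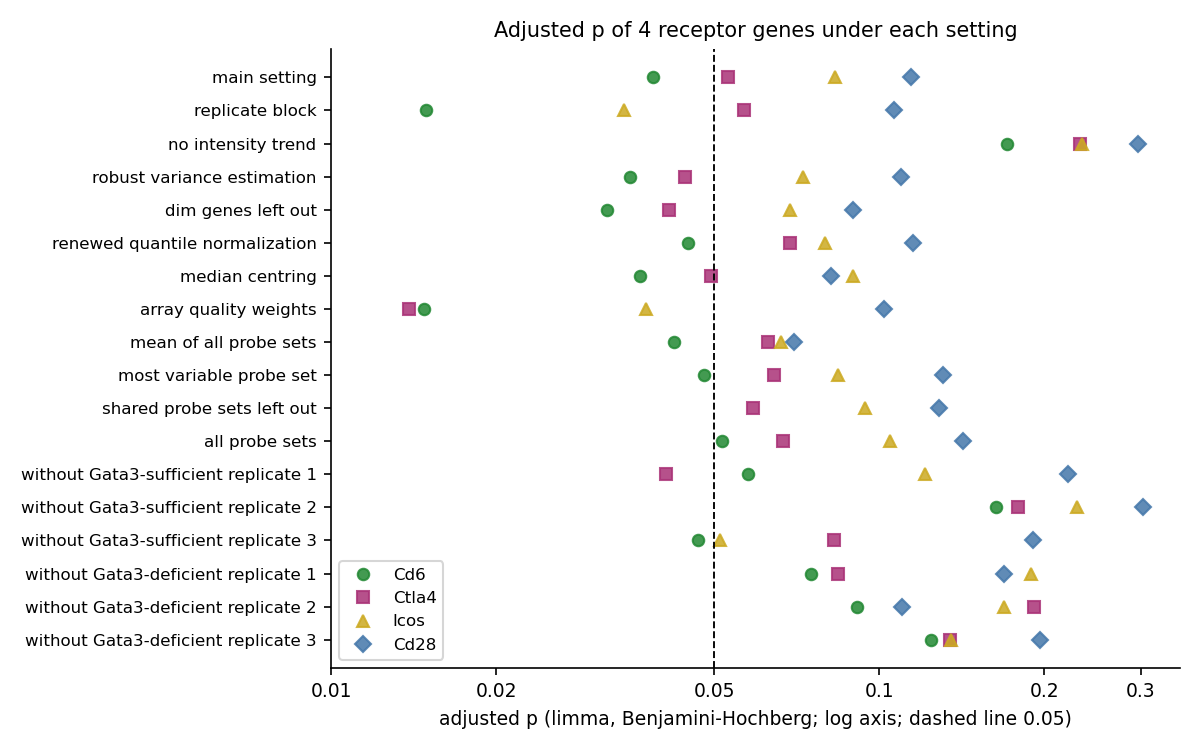
Adjusted p (horizontal axis, log scale) of Cd6, Ctla4, Icos and Cd28 in the main setting, under 11 alternative settings and with each array left out; the dashed line is the threshold of 0.05. Cd6 lies left of the line in the main setting and in 8 of the 10 alternatives that measured it, Ctla4 in 4 of 11, Icos in 2 and Cd28 in 0, and with arrays left out Cd6 and Ctla4 each pass once.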

How the data were processed

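Per the labels' protocols, biotinylated cRNA was made from total RNA extracted with Trizol. The authors deposited 1 log2 value per probe set and array, summarised with RMA per the submitters' processing notes. RMA equalises array distributions, so a shift shared by most genes would be removed. That the scale is log2 was inferred from how large the values are. Scanner files were not used, and no batch or date was given in the sources used here. The platform's annotation gave 20393 probe sets 1 gene, 691 several and 1606 none. Those with 1 gene were used, and the probe set with the highest mean stood for each gene.

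Groups were compared without pairing over all genes in R 4.3.3 with limma 3.58.1 (lmFit, eBayes with intensity trend), two-sided, with Benjamini-Hochberg adjustment over 12394 genes and a threshold of 0.05. The fit was tested on data simulated with each gene's mean and spread and independent normal noise. It recovered 11.5% of log2 changes of 0.25, 54.2% of those of 0.5 and 92.1% of those of 1. Changes of about 0.25 were thus mostly missed there, so not passing says little about a change of that size. Named were the 10 receptor genes, Gata3, Foxp3, list genes past the threshold, up to 4 genes with the smallest p in each list, and the 3 genes most alike to Ctla4 and to Cd6; a few neighbours and markers were added after their values were seen. The receptor genes and lists were chosen with earlier results of these data known. Of 139 listed genes 117 were measured. Exact permutation tests used scipy 1.17.1, and figures matplotlib 3.10.9.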

Additional observations from a re-analysis of the deposited data

How the results depend on the processing

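Of the 10 receptor genes 1 passed in the main setting and in the settings with renewed quantile normalization, the mean of all probe sets and the most variable probe set. It was 2 with robust variance estimation, dim genes left out, median centring or the replicate number as a replicate block. The count was 3 with array quality weights. It fell to 0 without the intensity trend, with all probe sets tested or with shared probe sets left out. Shared here means only that the probe set's name ends in _s_at, _x_at or _a_at. The only Cd6 probe set ends in _a_at, so that setting removes it, though the annotation gives it Cd6 alone. With 1 array left out the count was 0 to 1. Over all genes 274 passed, 54 without the trend, 585 with array quality weights and 62 to 270 with 1 array left out. Of all list genes 5 passed, 11 with the replicate block, 1 without the trend, 14 with array quality weights and 1 to 9 with 1 array left out. Of the 12 receptor probe sets 0 passed in the main setting, 1 with renewed quantile normalization or shared probe sets left out, 2 with the replicate block, robust estimation or dim probe sets left out, and 4 with array quality weights.

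The sign of a change turned in 5 of 168 alternative values of receptor genes, all near 0 and all with 1 array left out. The ranges there were -0.23 to 0.096 for Lag3, -0.024 to 0.082 for Cd200 and -0.057 to 0.081 for Cd83. Other named genes turned with the most variable probe set (Cd247 0.057, Cd8a -0.15, Pik3cd -0.18, Pag1 0.024, Cd160 -0.099, Foxo1 0.0091, Ece2 -0.19), the mean of all probe sets (Cd8a -0.030, Pik3cd -0.038, Cd160 -0.014) or shared probe sets left out (Cd160 -0.0034). With 1 array left out Klra8 ranged from -0.012 to 0.14 and Foxp3 from -0.022 to 0.096. The cause of these shifts was not tested. For the replicate block, the labels do not say that the numbers pair mice, so the numbers were not taken as pairs. Deviations from the group means correlated by 0.039, -0.018 and 0.070 between arrays of the same number. Between arrays of different numbers these correlations ran from -0.063 to 0.015. All are few and near 0, so they cannot decide whether the numbers pair mice.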

Other observations

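Lag3 had its highest value in replicate 1 and its lowest in replicate 2 of both groups. Among genes that were not dim, those with the most similar values over the 6 arrays were Mx1, Mx2 and Clps, which differed from it by a root mean square of 0.13, 0.14 and 0.14 log2 units. Mx1 and Mx2 are interferon-induced antiviral GTPase genes. Mx1 read 7.30, 6.68 and 6.93 on arrays labelled sufficient and 7.11, 6.45 and 6.57 on those labelled deficient, and Mx2 6.24, 5.72 and 5.71 against 6.11, 5.70 and 5.74. These are looser matches than those of Ctla4 or Cd6, Lag3 was picked for this after its values were seen, and the replicate numbers are not known to pair mice.

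The genes in this and the next paragraph were also picked after their values were seen. Efhd2 was the gene most like both Ctla4 and the dim Havcr2, and Ctla4 was the second most like Havcr2, at 0.027 log2 units. Tnfrsf14, a ligand gene of the coreceptor BTLA that is in none of the lists, was the gene most like Pdcd1, at 0.020. It read 5.87, 5.56 and 5.64 on arrays labelled sufficient and 5.61, 5.82 and 5.87 on those labelled deficient.

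St8sia4, a sialyltransferase gene that lies 2 protein-coding genes from Pdcd1 on chromosome 1, fell by 0.41 on the log2 scale (adjusted p = 0.00183 by limma). Leaving out any single array kept it past the threshold (0.00409 to 0.0166 over the 6 fits), and with the mean of its probe sets it was -0.27 and did not pass (0.135). Fam174a, the gene between them, had a log2 change of -0.05 ± 0.05 (SE).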
